A study of Homo sapiens with 6 samples.

Results

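The mitochondrial ribosomal proteins are encoded by nuclear genes whose names begin with MRPL (large subunit) or MRPS (small subunit). Their mRNA levels were compared between LNCaP-AI cells in which an shRNA targeted PCAT1, a long non-coding RNA (shPCAT1, n = 3), and cells given a scramble shRNA (shSCR, n = 3). Members were the listed genes whose name is MRPL or MRPS followed by a number and, at most, a letter from A to C. This gave 78 of the 11848 genes in the table (49 MRPL and 29 MRPS), with 204 of its 29091 transcripts. LNCaP-AI is an androgen-independent line derived from the human prostate cancer line LNCaP by long culture in charcoal-stripped, androgen-poor serum, and all 6 samples are of this line. The shRNA was introduced by transfection, and the samples of a group share cell line and construct. The level of PCAT1 was not analysed here, and how far it was lowered is not known from these values. Nothing in the labels says that replicates were separate cultures, so the p-values rest on a spread that may be technical.

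The mitochondrial ribosome translates the few mRNAs of the mitochondrial genome, all of which encode subunits of the respiratory chain and the ATP synthase. Its rRNAs and valine or phenylalanine tRNA are made in the organelle, while its proteins are made in the cytosol and imported. Some of its proteins descend from those of bacterial ribosomes and others are found only in mitochondria. The numbering of the former follows the bacterial proteins, so that MRPL14 is the counterpart of bacterial L14 and MRPL12 that of L7/L12. A few names mislead: MRPS18A and MRPS30 sit in the large subunit, and MRPS36 belongs to the alpha-ketoglutarate dehydrogenase complex. The groups below follow the names.

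To show what these genes share at their starts, RefSeq promoters (build GRCh38.p14, 250 bases before to 50 after the annotated start) were found for 69 of the 78 members. They were searched on both strands for cores bound by regulators of nuclear-encoded mitochondrial genes. The ETS core CCGGAAG, which GABPA binds, was present in 29 promoters (42.0%), against 21.1% of the promoters of 8476 tested genes and 10.3% of all 35116. The YY1 core AAGATGGC was present in 20 (29.0%), against 6.06% and 2.89%. The NRF1 core (GCGC, any base, TGCGC) was present in 8 (11.6%), against 13.0% and 5.78%. The ETS and YY1 cores can share 3 letters, which happened in 0 of the 69 promoters. A match is a description and not a binding site. Of the members, 45 (65.2%) had at least 1 of the 3 cores, against 35.0% of tested genes. The median log2 change in shPCAT1 was -0.19 for members with the ETS core and -0.11 for those without, -0.04 and -0.15 for the YY1 core, and -0.37 and -0.11 for the NRF1 core. For any of the 3 it was -0.25 with and -0.11 without. These medians are descriptions. The promoters of the members with the clearest differences are printed here, MRPL14 and MRPL12 for falls and MRPL32 for the higher level with the smallest p. Each is 5′ to 3′ on the strand of its gene, at chr6:44127259-44127558 (minus), chr17:81703117-81703416 (plus) and chr7:42932126-42932425 (plus). Capitals mark an NRF1 core in MRPL14, 123 bases before the start, and a YY1 core in MRPL32, 222 bases before it, both read from the opposite strand. MRPL12 held none of the 3. The RefSeq start need not be that of the transcript in the deposited table.
MRPL14: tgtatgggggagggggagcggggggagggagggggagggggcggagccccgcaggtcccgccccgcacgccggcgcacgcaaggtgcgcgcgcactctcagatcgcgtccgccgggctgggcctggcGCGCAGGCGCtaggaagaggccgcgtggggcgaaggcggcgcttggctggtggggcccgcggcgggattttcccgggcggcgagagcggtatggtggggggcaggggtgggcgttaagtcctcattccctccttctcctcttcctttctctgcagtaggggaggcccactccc
MRPL12: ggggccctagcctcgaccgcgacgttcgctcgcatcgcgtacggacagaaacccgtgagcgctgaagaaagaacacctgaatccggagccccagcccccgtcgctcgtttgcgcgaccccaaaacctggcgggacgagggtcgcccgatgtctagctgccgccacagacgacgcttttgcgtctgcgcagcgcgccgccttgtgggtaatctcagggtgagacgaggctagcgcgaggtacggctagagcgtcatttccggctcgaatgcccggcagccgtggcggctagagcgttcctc
MRPL32: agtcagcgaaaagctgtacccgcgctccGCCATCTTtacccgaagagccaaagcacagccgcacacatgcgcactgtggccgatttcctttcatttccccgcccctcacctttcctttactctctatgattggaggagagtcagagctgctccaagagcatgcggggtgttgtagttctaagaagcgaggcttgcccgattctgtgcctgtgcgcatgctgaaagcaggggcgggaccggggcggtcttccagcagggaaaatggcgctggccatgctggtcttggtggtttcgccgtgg

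Levels are FPKM (fragments scaled by transcript length and by mapped reads), summed over the listed transcripts of a gene. Depth is unknown because the table holds no counts, and the listed FPKM of a sample summed to between 263353 and 303477. The line carried the luminal prostate genes KLK3 (354 to 554 FPKM) and FOLH1 (331 to 393 FPKM), while HOXB13 ran from 0.0555 to 153 FPKM. The basal keratin KRT5 stayed between 0.284 and 0.699 FPKM, and TP63, PTPRC and PECAM1 had no row in the table. The basal keratin KRT14 ran from 0.863 to 2.23 FPKM. The fibroblast genes VIM and COL1A1 were present, at 4.36 to 17.2 FPKM and 2.27 to 12.3 FPKM. The library of shSCR replicate 3 stood apart. Across 10825 genes its correlation with the others was 0.809 to 0.845, against 0.910 to 0.946 among the other 5 libraries (genes are not independent replicates). Results below are therefore also given without it where it matters.

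All 78 members passed the filter of a mean of 1 FPKM, and none came close to it. Their means over the 6 samples ran from 5.43 to 135 FPKM, with a median of 33.7 FPKM (39.3 for MRPL and 30.3 for MRPS genes). Together they made up 3012, 3283 and 4034 FPKM in shSCR replicates 1 to 3, and 2825, 2880 and 2792 FPKM in shPCAT1. As a share of all listed FPKM this was 1.13%, 1.21% and 1.33% against 1.07%, 1.09% and 1.06%. Every shPCAT1 library was below every shSCR library in both measures, and the highest value was that of shSCR replicate 3. Single members weigh in such sums, which do not show a fall shared by the family. Between shSCR replicate 1 and shPCAT1 replicate 2, MRPL12 went from 102 to 40.8 FPKM and MRPS34 from 43.7 to 12.1 FPKM. The log2 change was above 0 in 31 of the 78 members. Single members need some caution, since 36 have annotated pseudogenes, 11 overlap another protein-coding gene on the same strand and 21 on the other strand.

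In the comparison of shPCAT1 with shSCR, 2 of the 78 members were called, MRPL14 and MRPL12, both lower (limma on log2(FPKM + 1), Benjamini-Hochberg adjusted p of at most 0.05 over all genes). Over all 10825 genes 0.878% were called, 0.545% lower and 0.333% higher. No member was called higher, and before adjustment 0 members reached 0.05 in that direction (against 7.23% of all genes) and 9, or 11.5%, in the lower one (against 10%), with 17.2% of all genes in either. These counts changed with a correction for GC content. Before adjustment 3 members were then lower (3.85%, against 7.82% of all genes) and 3 higher (against 8.95% of all genes). The groups did not overlap in 15 members that were lower (19.2%, against 17.7% of all genes) and in 4 that were higher (5.13%, against 14.8%). The log2 change was below 0 in 47 of 78 members (60.3%, against 54.2% of all genes). Its median was -0.13, against -0.05 over all genes, and 54 members lay within 0.5 of 0. Leaving MRPL14 out, the median of the other 77 was -0.11.

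**Figure D1:**
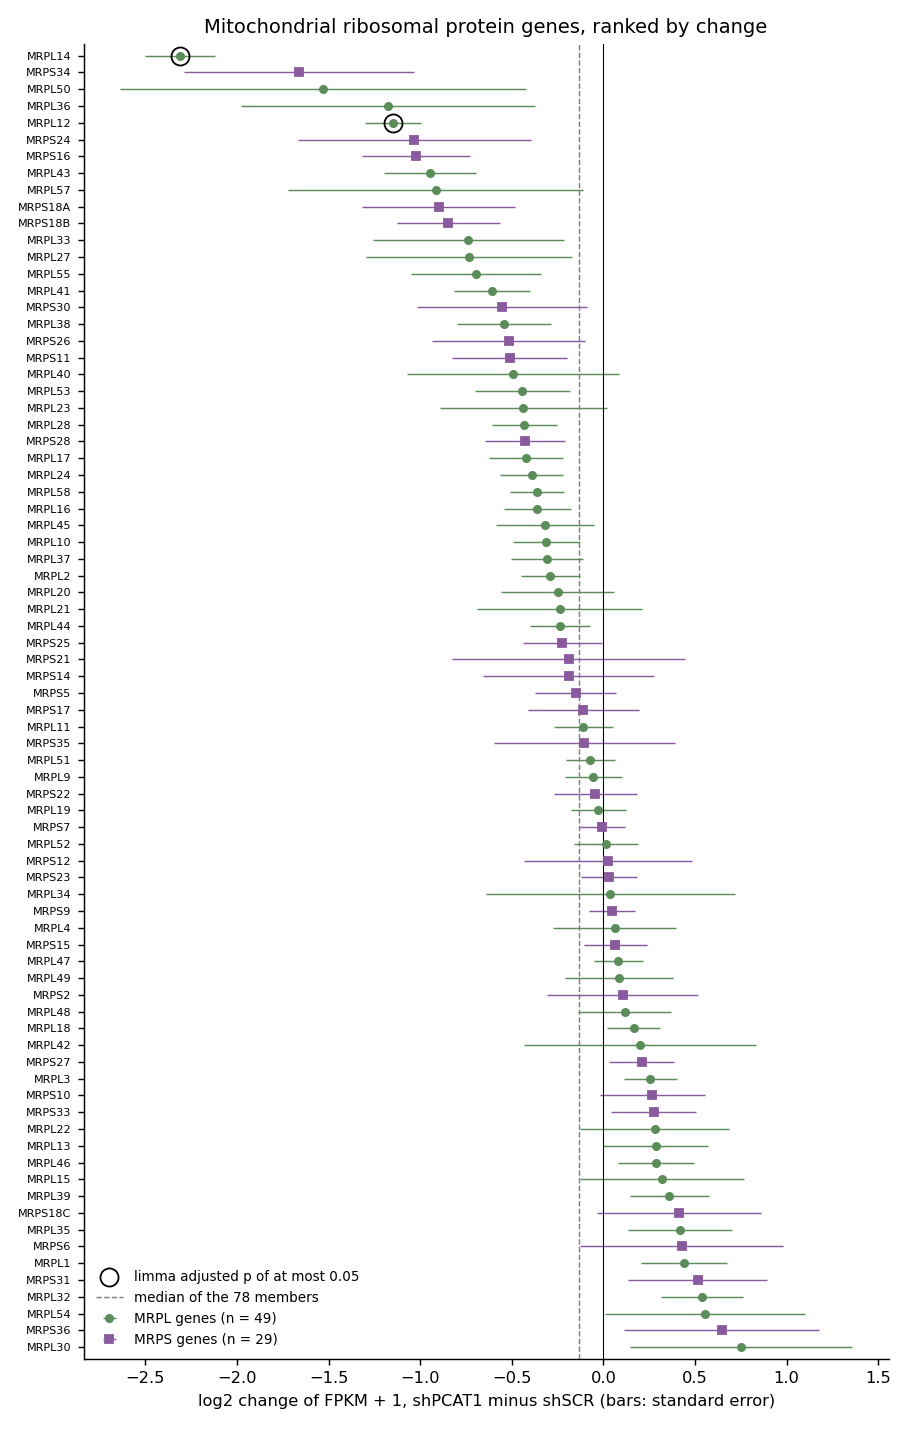
Log2 change of FPKM + 1 (shPCAT1 minus shSCR, x axis) with its standard error for each of the 78 members, ranked, with MRPL genes as circles and MRPS genes as squares. MRPL14 lies at -2.31 and MRPL12 at -1.15, both ringed as called, and 54 of the 78 members lie within 0.5 of 0.

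By subunit, the 49 MRPL genes had a median log2 change of -0.24 (30 below 0), and the 29 MRPS genes of -0.10 (17 below 0). By descent, the 45 bacterial homologues had a median of -0.11 and the 28 mitochondria-specific proteins of -0.16. Without shSCR replicate 3 the medians were -0.10 for MRPL and -0.054 for MRPS genes, 0.014 for the bacterial homologues (24 of 45 above 0) and -0.11 for the mitochondria-specific proteins. After a correction for GC content they were -0.082, -0.10, -0.035 and -0.099 in the same order. The sign of the median of the bacterial homologues also turned with quantile normalization (0.011). With upper quartile scaling the median of all genes moved from -0.05 to 0.03 and that of the members to -0.04, and with quantile normalization to 0.03 and -0.04.

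MRPL14 stood out from the rest of the family. It is a protein of the large subunit, as L14 is in bacteria, where it lies on the face toward the small subunit. It was singled out with its result known. MRPL14 measured 27.0, 26.9 and 20.4 FPKM in shSCR replicates 1 to 3, and 3.65, 3.95 and 4.95 FPKM in shPCAT1. The lowest shSCR library was thus far above the highest shPCAT1 library. The means were 24.8 ± 3.83 and 4.18 ± 0.680 FPKM (SD, n = 3 each), which is 5.92-fold lower in shPCAT1. The log2 change was -2.31 (SE 0.19, limma adjusted p = 0.0189), the largest fall of any member, the 26th largest of the 10825 genes, and the 8th smallest p. In bulk RNA, a fall in some of the cells and a smaller fall in all of them cannot be told apart.

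The adjusted p of MRPL14 depended on the samples in the fit. It was 0.00748 without shSCR replicate 3, and rose past the threshold without any other library: 0.0750 and 0.0731 when shSCR replicate 1 or 2 was dropped, and 0.106, 0.136 and 0.0800 when shPCAT1 replicate 1, 2 or 3 was. The log2 change stayed between -2.44 and -2.24 in these fits. Over every alternative tried the adjusted p ran from 0.00748 to 0.219.

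Set against the family within each library, MRPL14 lay a little under the median of the other members in shSCR, by -0.27, -0.33 and -0.76 on the log2(FPKM + 1) scale. In shPCAT1 it lay at -2.79, -2.63 and -2.29. The mean difference was -0.45 ± 0.27 in shSCR and -2.57 ± 0.26 in shPCAT1 (SD, n = 3 each), a shift of -2.12 that is given as a description. Counted from the lowest of 78 members, MRPL14 ranked 32, 32 and 23 in the shSCR libraries and 3, 1 and 5 in the shPCAT1 libraries. Its share of the members' summed FPKM was 0.898%, 0.820% and 0.505% in shSCR, and 0.129%, 0.137% and 0.177% in shPCAT1.

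**Figure D2:**
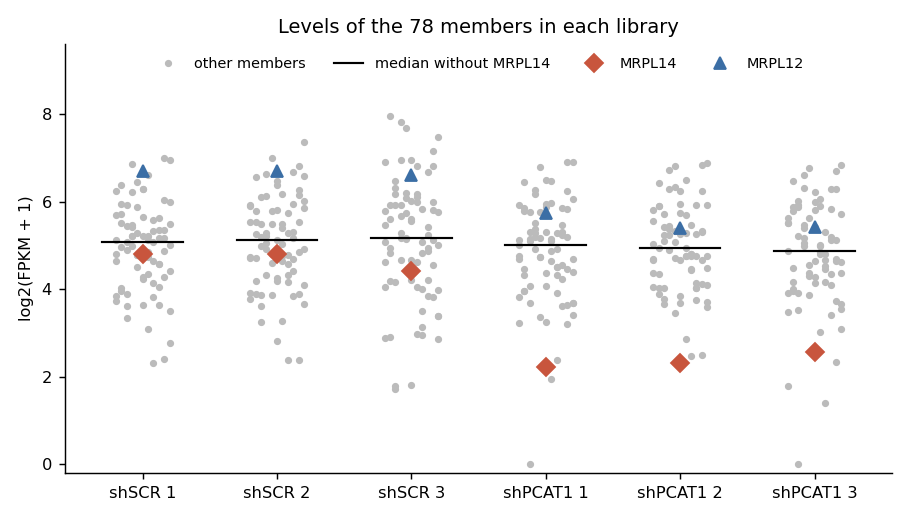
Level of each member as log2(FPKM + 1) in the 6 libraries (points), with the median of all members but MRPL14 as a line, MRPL14 as diamonds and MRPL12 as triangles. MRPL14 ranks 32, 32 and 23 from the lowest in shSCR and 3, 1 and 5 in shPCAT1, while the median of the other members lies between 4.86 and 5.17 in all 6.

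MRPL14 had a single listed transcript, ENST00000372014.4_1, at chr6:44081191-44095194 on the minus strand of hg19, with 3 exons. The fall therefore could not be divided among isoforms. In the transcript fit it was the only member transcript called of 157 tested (adjusted p = 0.0491, against 0.0977% of all 20474 transcripts called). Of the alternatives tried on transcripts, this call was kept only without shSCR replicate 3. No pseudogene named after MRPL14 was found in the annotation used, which was searched by name only. On the other strand it overlaps annotated TMEM63B, a membrane ion channel gene, and the libraries were made with a stranded kit.

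The genes next to MRPL14 were followed for the same reason. TMEM63B starts 97 bases from the upstream end of MRPL14 and runs the other way. It measured 10.6, 11.8 and 16.5 FPKM in shSCR and 6.76, 6.87 and 6.75 FPKM in shPCAT1, with no overlap between the groups. Its log2 change was -0.82 (SE 0.20, limma adjusted p = 0.135), and it was called only without shSCR replicate 3, at -0.64 and 0.0265, or with that library left out and GC corrected, at 0.0442, within a range of 0.0265 to 0.435 over the alternatives. Its shorter transcript ENST00000532634.5_1 carried 9.46 FPKM in shSCR replicate 3 and at most 0.347 FPKM in any other library. SLC29A1, a nucleoside transporter gene and the only other listed gene within 100000 bases, had a log2 change of 0.11 (SE 0.23, adjusted p = 0.810), with overlapping groups. In bacteria L14 is bound by the silencing factor RsfS, and in human mitochondria MRPL14 is bound by its counterpart MALSU1. MALSU1, named after its values were seen, measured 10.6 ± 1.11 FPKM in shSCR and 9.49 ± 0.725 FPKM in shPCAT1 (SD, n = 3 each), with overlapping groups and a log2 change of -0.15 (SE 0.15, limma adjusted p = 0.620).

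MRPL12, the protein of the flexible stalk that receives translation factors, also fell. It measured 102, 104 and 96.8 FPKM in shSCR and 52.8, 40.8 and 41.9 FPKM in shPCAT1. The shSCR libraries were close together and all well above shPCAT1, and the means of 101 ± 3.64 and 45.2 ± 6.59 FPKM (SD, n = 3 each) differ 2.23-fold. The log2 change was -1.15 (SE 0.15, limma adjusted p = 0.0418). This call was lost with upper quartile scaling (0.0665), quantile normalization (0.0649) and a correction for GC content (log2 change -0.67, adjusted p = 0.352), and without each library other than shSCR replicate 3 (0.117 to 0.228). Without shSCR replicate 3 it was 0.0228, and over all alternatives it ran from 0.0228 to 0.374. Its single listed transcript lies at chr17:79670387-79674556 on the plus strand of hg19 and overlaps an unnamed protein-coding gene on the same strand, so reads of that gene may count toward it. Within each library MRPL12 ranked 75, 75 and 67 from the lowest member in shSCR, and 58, 54 and 53 in shPCAT1.

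The other stalk proteins were read beside it, by role and after their values were seen. MRPL10, the base on which the stalk proteins sit, measured 39.1, 38.1 and 27.5 FPKM in shSCR and 29.2, 26.8 and 26.8 FPKM in shPCAT1, so that shSCR replicate 3 fell among the shPCAT1 values. Its log2 change was -0.31 (SE 0.18, limma adjusted p = 0.420), and -0.47 with an adjusted p of 0.0352 without that library. MRPL11, which completes the stalk base, had a log2 change of -0.11 (SE 0.16, adjusted p = 0.734). POLRMT, the mitochondrial RNA polymerase to which free MRPL12 is known to bind, measured 12.7, 11.4 and 41.2 FPKM in shSCR and 13.0, 14.2 and 15.0 FPKM in shPCAT1, with overlapping groups and an adjusted p of 0.704.

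Further members had lower levels in shPCAT1 with no overlap of the groups, but did not pass the test. MRPS34, a small-subunit protein found only in mitochondria and needed for a stable small subunit, measured 43.7, 95.6 and 14.7 FPKM in shSCR. In shPCAT1 it held to 11.9, 12.1 and 11.6 FPKM. The spread was thus nearly all in the shSCR libraries, and the log2 change was -1.66 (SE 0.63, limma adjusted p = 0.264). Without shSCR replicate 3 it was -2.35 (adjusted p = 0.0338) and without shSCR replicate 2 it was -1.04 (0.319), the range over the alternatives being 0.0338 to 0.538.

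MRPS16, the counterpart of bacterial S16, measured 51.4, 25.3 and 47.7 FPKM in shSCR and 20.8, 19.3 and 17.0 FPKM in shPCAT1 (log2 change -1.02, SE 0.29, limma adjusted p = 0.185). MRPL43, a mitochondria-specific protein, measured 15.6, 24.8 and 28.1 FPKM against 11.2, 12.5 and 9.57 FPKM (-0.95, SE 0.25, 0.161). MRPS18B, a paralogue within the human S18 family, measured 74.9, 59.0 and 54.4 FPKM against 33.9, 24.2 and 48.4 FPKM (-0.85, SE 0.28, 0.227). In all of these the highest shPCAT1 library was below the lowest shSCR library, by a few FPKM. MRPS16 has 3 annotated pseudogenes and MRPS18B has 2, which can share reads with them. The remaining lower members without overlap were MRPL41, MRPL38, MRPL53, MRPL28, MRPS28, MRPL17, MRPL24, MRPL58 and MRPL44, with log2 changes from -0.61 to -0.24.

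Only 4 members were higher in shPCAT1 with no overlap, all of the large subunit, and none passed the test. MRPL32, a counterpart of bacterial L32 that is cleaved by the m-AAA protease before it joins the ribosome, measured 44.6, 45.0 and 27.5 FPKM in shSCR and 54.5, 58.7 and 53.9 FPKM in shPCAT1 (log2 change 0.54, SE 0.22, limma adjusted p = 0.295). MRPL1, of the L1 stalk where spent tRNA leaves, measured 26.8, 25.7 and 15.6 FPKM against 31.2, 31.8 and 28.1 FPKM (0.44, SE 0.23, 0.387). MRPL39 measured 25.4, 23.9 and 15.6 FPKM against 28.4, 26.1 and 27.9 FPKM (0.36, SE 0.21, 0.429). MRPL3, which reaches toward the peptidyl transferase centre, measured 64.5, 70.3 and 55.2 FPKM against 75.0, 74.2 and 77.2 FPKM (0.26, SE 0.14, 0.408). In each of the 4 the lowest library was shSCR replicate 3. Without it the log2 changes were 0.31, 0.20, 0.15 and 0.16 in the same order, and the adjusted p values 0.0678 to 0.283. After the GC correction MRPL32 stood at 0.43, and MRPL1, MRPL39 and MRPL3 at 0.11, 0.17 and 0.12.

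The most abundant members did not pass the test either. MRPL24, the counterpart of a protein at the exit of the bacterial ribosomal tunnel, led with 122, 162 and 178 FPKM in shSCR and 119, 116 and 112 FPKM in shPCAT1 (log2 change -0.39, SE 0.17, limma adjusted p = 0.311). MRPL20, an early-binding protein of the large subunit, measured 86.7, 126 and 204 FPKM against 110, 111 and 108 FPKM (-0.25, SE 0.31, 0.679), and its sign turned to 0.07 without shSCR replicate 3. MRPL51 measured 127, 112 and 112 FPKM against 119, 112 and 102 FPKM (-0.07, SE 0.13, 0.790), and its sign turned with both other scalings. MRPS26 measured 82.4, 93.7 and 246 FPKM against 86.0, 85.0 and 88.1 FPKM (-0.52, SE 0.42, 0.535), and was -0.02 without shSCR replicate 3. In MRPL20 and MRPS26 the shSCR mean was raised by that library, while the shPCAT1 libraries lay close together.

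**Figure D3:**
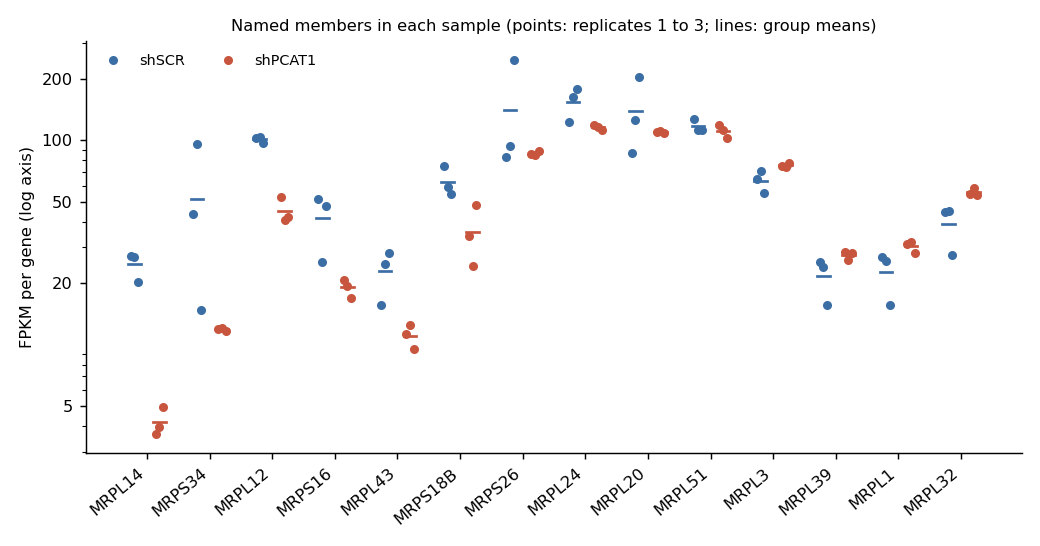
FPKM per gene on a log axis for the 14 named members, ordered by log2 change, with the 3 shSCR and 3 shPCAT1 libraries as points and group means as lines. MRPL14 falls from 20.4 to 27.0 FPKM in shSCR to 3.65 to 4.95 FPKM in shPCAT1. MRPL51 lies between 112 and 127 FPKM in shSCR and between 102 and 119 FPKM in shPCAT1.

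MRPL50, MRPL57 and MRPL36 are named because libraries of the same group lay far apart in them. MRPL50 measured 9.06, 8.45 and 2.45 FPKM in shSCR. It was listed at 0 in shPCAT1 replicates 1 and 3 and at 12.6 FPKM in replicate 2, and it was the only member listed at 0 in any library. MRPL57 stayed between 23.7 and 26.1 FPKM in 5 libraries and measured 2.45 FPKM in shPCAT1 replicate 3. MRPL36 measured 32.9 FPKM in shSCR replicate 3 and 1.64 to 4.58 FPKM elsewhere. Their log2 changes of -1.53, -0.91 and -1.17 carried standard errors of 1.11, 0.81 and 0.80, and none passed the test.

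The spread between replicates was larger in shSCR. Over the members, the median coefficient of variation was 29.2% in shSCR and 10.8% in shPCAT1, and it was larger in shSCR for 62 of 78. Between shSCR replicates 1 and 2 alone it was 8.45%. Over all genes the medians were 29.8% and 10.7%. Of the 78 members, shSCR replicate 3 gave the highest of the shSCR values in 37 and the lowest in 30.

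This library moved with GC content. Its deviation from the mean of shSCR replicates 1 and 2 had a Spearman rho of 0.49 with the GC content of the members (n = 78, genes of the same libraries), and 0.58 over 10748 genes. The log2 change of the members had a rho of -0.48 with GC content, and -0.17 without that library. In the 38 members at or above the median GC content of all genes (48.6%) the median log2 change was -0.38, and in the 40 below it was 0.06. Without shSCR replicate 3 these were -0.22 and -0.0015, and after a correction for GC content -0.09 and -0.06.

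**Figure D4:**
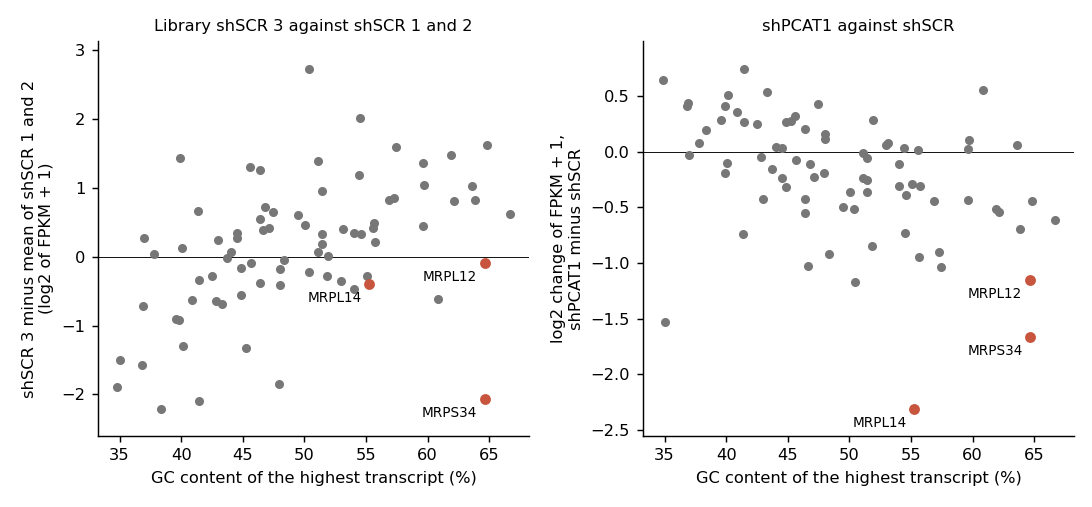
Members plotted by the GC content of their highest listed transcript (x axis, percent) against the deviation of shSCR replicate 3 from shSCR replicates 1 and 2 (left) and against the log2 change (right). The deviation climbs with GC content (rho 0.49) and the log2 change declines (rho -0.48), while MRPL14, at 55.3% GC, lies far below members of like GC content.

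MRPL14 kept its call under the GC correction. Its GC content is 55.3%, its log2 change was -2.05 (SE 0.26, limma adjusted p = 0.0320) after the correction, and it remained the only member called there, against 1.29% of all genes. MRPL12, at 64.6% GC, lost its call as given above. After the correction 8 members were lower without overlap (10.3%, against 12.7% of all genes) and 6 were higher (7.69%, against 16.5%). With the correction and without shSCR replicate 3, MRPL12 was called at -1.01 (adjusted p = 0.0370).

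Without shSCR replicate 3, 5 members were called, all lower (8.03% of all genes were called, 4.4% lower). They were MRPL14, MRPL12, MRPS34, MRPL10 and MRPL41, of which MRPL10 and MRPL41 were not named by the rule but after their values were seen. MRPL41, a mitochondria-specific protein of the large subunit, measured 77.1, 82.8 and 123 FPKM in shSCR and 57.5, 60.3 and 63.0 FPKM in shPCAT1. Its log2 change was -0.61 (SE 0.21, limma adjusted p = 0.238) with all libraries and -0.40 (adjusted p = 0.0458) without that one. In that fit 20 members were lower without overlap and 12 were higher (25.6% and 15.4%, against 25.6% and 23.1% of all genes), and the median log2 change was -0.06, against -0.01 over all genes. Leaving out any of the other 5 libraries left 0 members called by limma, and 4 to 11 of all 10825 genes were called in those fits. At an unadjusted p of at most 0.05 they held 4 to 10 members lower and 0 to 1 higher, against 6.10% to 10.1% and 3.72% to 7.34% of all genes.

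Members with several transcripts were also followed by isoform. Of the 78 members, 26 had 1 listed transcript and 52 had 2 or more, with a maximum of 14 in MRPL55. Of 157 member transcripts tested, 20 were lower without overlap (12.7%, against 11.2% of all transcripts) and 12 were higher (7.64%, against 11.3%). The next count is a description, with no share over all genes beside it. In 10 members a transcript separated the groups while the gene sum did not, 5 toward higher and 5 toward lower. MRPL17 is not among these 10, since its gene sum was lower without overlap. It was the only member with separating transcripts in both directions. Its longer transcript ENST00000288937.6_1 measured 34.9, 40.9 and 62.5 FPKM in shSCR and 29.3, 30.04 and 28.5 FPKM in shPCAT1, and its shorter ENST00000532203.1_1 measured 4.94, 4.68 and 0.389 FPKM against 6.02, 8.78 and 5.56 FPKM. Neither passed the test (adjusted p = 0.533 and 0.592).

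MRPS27 and MRPL37 are given as examples chosen after their values were seen. MRPS27, an RNA-binding protein of the small subunit, had similar gene sums in both groups (41.5 to 60.9 and 56.0 to 59.2 FPKM). Its transcript ENST00000457646.8_1 measured 7.19, 2.11 and 16.1 FPKM in shSCR and 0.584, 1.35 and 0.667 FPKM in shPCAT1 (log2 change -2.04, SE 0.63, limma adjusted p = 0.453). In MRPL37 the main transcript ENST00000360840.9_1 stood at 43.5 FPKM in shPCAT1 replicate 1, against 94.0 to 122 FPKM in the other 5 libraries. In that same library the transcripts ENST00000605337.5_1 and ENST00000336230.10_1 stood at 13.1 and 13.5 FPKM, against at most 2.13 FPKM elsewhere. The size of these shifts was thus that of 1 library. Still, 2 of the 3 MRPL37 transcripts tested were higher in shPCAT1 without overlap, while the gene sums overlapped. Estimates for transcripts that share exons are uncertain.

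The other genes of mitochondrial translation gave no call in the fit with all libraries. The mitoribosomal proteins with other names had a median log2 change of -0.10 (6 of 6 below 0, DAP3 at -0.0019 and PTCD3 at -0.0039). The translation factors had 0.21 (15 tested of 16), the assembly and rRNA modification factors -0.25 (30 tested, 23 below 0), and the genes of mitochondrial transcription and RNA handling -0.03 (24 tested). The mitochondrial aminoacyl-tRNA synthetases and their tRNA-linked partners had -0.25 (19 tested, 14 below 0), and the transcription factors of nuclear mitochondrial genes 0.05 (12 tested of 13). Over all genes the median was -0.05 and 54.2% were below 0. At an unadjusted p of at most 0.05, these lists held 5 genes higher and 9 lower, which is 13.2% of the 106 tested, against 17.2% of all genes. Without shSCR replicate 3 the 6 medians were, in the order given, -0.086 (4 of 6 below 0), -0.086, -0.095, -0.088, -0.088 and 0.12, so that the sign turned for the translation factors. After the GC correction they were -0.025, 0.064, -0.086, -0.13, -0.13 and 0.12. The sign also turned with upper quartile scaling for transcription and RNA handling (0.044), and with quantile normalization for that list (0.028) and for the proteins with other names (0.013).

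**Figure D5:**
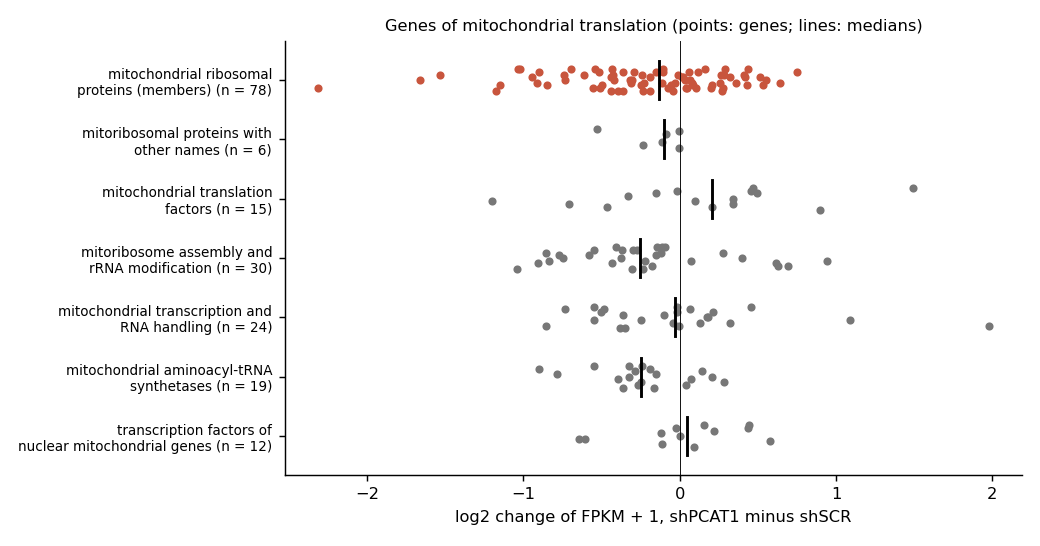
Log2 change of FPKM + 1 (shPCAT1 minus shSCR, x axis) of the genes in each list of mitochondrial translation, with medians as lines. MRPL14 at -2.31 is the lowest point of any list, and the medians lie between -0.25 and 0.21.

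In each list the genes with the smallest p were followed. TUFM, the elongation factor that brings aminoacyl-tRNA to the ribosome, measured 168, 171 and 194 FPKM in shSCR and 128, 129 and 128 FPKM in shPCAT1 (log2 change -0.47, SE 0.12, limma adjusted p = 0.156). LRPPRC, which stabilises mitochondrial mRNAs, measured 59.5, 58.8 and 50.4 FPKM against 38.5, 38.8 and 36.7 FPKM (-0.55, SE 0.14, 0.149). TARS2, the threonyl-tRNA synthetase, measured 24.3, 23.5 and 31.6 FPKM against 15.5, 15.8 and 13.3 FPKM (-0.78, SE 0.18, 0.122). All 3 were lower with no overlap and were called without shSCR replicate 3, at 0.0246, 0.0178 and 0.0353, within ranges over the alternatives of 0.0246 to 0.635, 0.0161 to 0.445 and 0.0353 to 0.404. In that fit MTIF2 was also called lower and CARS2 higher. That made 5 of the 106 tested genes of these lists (1 higher, 4 lower), against 8.03% of all genes.

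Of the 106 list genes tested, 9 were higher with no overlap (8.49%, against 14.8% of all genes) and 16 lower (15.1%, against 17.7%). Those higher included MTERF3 (10.0 ± 1.42 against 16.0 ± 0.703 FPKM, adjusted p = 0.149), a mitochondrial transcription termination factor family member that acts in ribosome assembly, and MRRF (4.79 ± 0.610 against 7.15 ± 0.893 FPKM, 0.243), the ribosome recycling factor. GABPB1 (5.92 ± 1.89 against 9.16 ± 1.51 FPKM, 0.296), the partner of GABPA, was higher too (SD, n = 3 each, limma). MPV17L2, an assembly factor of the inner membrane, measured 8.52, 3.34 and 6.51 FPKM in shSCR and 11.3, 11.8 and 12.9 FPKM in shPCAT1 (adjusted p = 0.218). MTERF3 and MPV17L2 went the other way from most of the assembly and rRNA modification list, in which 23 of 30 genes were below 0. TRMT10C, a subunit of mitochondrial RNase P, measured 2.01, 26.6 and 12.8 FPKM in shSCR and 41.7, 38.5 and 40.6 FPKM in shPCAT1 (log2 change 1.98, SE 0.78, adjusted p = 0.276), with its shSCR libraries far apart and a log2 change of 1.08 without shSCR replicate 1. None of these passed the test. AARS2, the alanyl-tRNA synthetase, was at 4.75, 5.16 and 13.0 FPKM against 4.01, 4.48 and 4.74 FPKM (adjusted p = 0.469), and PPRC1, a coactivator of the PGC-1 family, at 7.93, 9.48 and 13.0 FPKM against 15.2, 13.8 and 12.8 FPKM (0.340). Of the mitoribosomal proteins with other names, AURKAIP1 ran from 99.0 to 299 FPKM with its top in shSCR replicate 3 (adjusted p = 0.517), and CHCHD1 from 50.4 to 66.8 FPKM (0.704).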

How the data were processed

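RNA-seq of 6 LNCaP-AI samples (3 shSCR, 3 shPCAT1) was analysed from 1 transcript table. Per the labels and the study's methods, rRNA was removed, poly(A) RNA selected and stranded libraries sequenced single-end. HISAT2 2.0.4 and hg19 are named in the submitters' processing notes, whereas TopHat and Ensembl GRCh37 appear in the study's methods, and it is open which aligner made this table. FPKM values per transcript were computed and deposited by the authors with Ballgown, with no counts, so depth and counting error are unknown. The deposited table lists transcripts with a mean of at least 0.5 FPKM in a group. The authors also deposited group means on a log2 scale, log2 fold changes, a fold ratio, p-values and q-values, which were not used. An exact 0 can be a failed estimate.

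FPKM was summed per gene. Those averaging at least 1 FPKM were tested on log2(FPKM + 1), that is a pseudocount of 1, with limma 3.58.1 under R 4.3.3 (lmFit and a robust eBayes with trend, no covariate, called at adjusted p of at most 0.05). Fold changes on that scale understate changes of low genes. A fit over transcripts used the same steps. An exact permutation test of 3 against 3 was not used. Fits were tested on simulated data. GC content came from the highest listed transcript found in a GRCh37 annotation (10748 genes), and the GC correction was a loess fit (span 0.3) of each library's deviations. Also tried were no filter, a pseudocount of 0.1, a mean of at least 5 FPKM, upper quartile scaling, quantile normalization, no trend or robust fit, the replicate number as a block, each sample left out and, added after seeing the data, the GC correction without shSCR replicate 3.

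The members and gene lists were chosen with earlier results of these data known. Members named by rule were MRPL14, those called, up to 6 with the largest change in each direction without overlap, and the 4 most abundant. Of each list the 2 genes with the smallest p were named, as were listed genes within 100000 bases of MRPL14. Positions are those of the table (hg19) unless GRCh38.p14 is named. Some genes of the lists are not reported here.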

Additional observations from a re-analysis of the deposited data

How the results depend on the processing

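Genes called numbered 95 in the main fit, 56 with a pseudocount of 0.1, 53 with a mean of at least 5 FPKM, 2 with the replicate block (also with GC correction), 687 with the GC correction without shSCR replicate 3, and 4 to 869 with 1 library left out. Members called went from 2 to 1 with upper quartile scaling, quantile normalization or the GC correction (139 genes), 0 with the replicate block, with or without GC correction, and 0 to 5 with 1 library left out. Same-numbered samples did not deviate together (correlations -0.02, -0.01 and 0.02). With 3 samples per group this cannot decide whether they were paired, and the labels name no pairing. Under the block MRPL14 kept its log2 change of -2.31 (limma adjusted p = 0.219), or -2.05 with GC correction (0.215). With 1 library left out MRPL14 ran from -2.44 to -2.24 and its difference from the family from -2.27 to -2.01. Members lower without overlap numbered 8 with the GC correction, block or not (10.3%, against 12.7% of all genes). With 1 library left out they numbered 18 to 22 (20.4% to 25.6% of all genes). Those higher numbered 12 with the GC correction without shSCR replicate 3 (25.9% of all genes) and 4 to 12 with 1 library left out (17.9% to 23.1% of all genes). The members' median was -0.039 with upper quartile scaling, -0.044 with quantile normalization, and -0.25 to -0.060 with 1 library left out. The MRPL median was -0.082 with the GC correction, with or without block, and -0.27 to -0.10 with 1 library left out, and the MRPS median -0.0089 with upper quartile scaling, 0.013 with quantile normalization, and -0.18 to -0.010 with 1 library left out. Transcripts called numbered 20, then 9 with a pseudocount of 0.1, 13 without a filter, 5 at a mean of 5 FPKM, 0 with the block and 1 to 86 with 1 library left out. The called member transcript was lost (0 called) with the pseudocount of 0.1, no filter, the mean of 5 FPKM, either scaling, the block, and no trend or robust fit, and 0 to 1 were called with 1 library left out. List genes called were 1 of 105 tested with the GC correction (1.29% of all genes). With it and without shSCR replicate 3 they were 4 (687 of all 10748 genes). With 1 library left out they were 0 to 5, the 5 of 106 tested being those without shSCR replicate 3 (8.03% of all genes). Signs turned, far from any call, for MRPL20 (0.15 with the GC correction without shSCR replicate 3 and -0.54 to 0.069 with 1 library left out), MRPL51 (0.023 with upper quartile scaling, 0.051 with quantile normalization), CHCHD1 (0.021 with quantile normalization), SLC29A1 (-0.048 to 0.28 with 1 library left out, below 0 without shSCR replicate 1 or shPCAT1 replicate 1) and, with the GC correction without shSCR replicate 3, MRPS26 (0.14), AURKAIP1 (0.12) and AARS2 (0.0029). The causes were not tested. Depth is unknown, so a small change of a low transcript cannot be judged against counting error.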
